A study of Mus musculus with 9 samples.

Results

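The 9 genes described here bring fatty acids into the lactating mammary gland and prepare them for use. They are Lpl, Vldlr, Cd36, Slc27a1, Slc27a3, Slc27a4, Fabp3, Acsl1 and Acsl4, 9 of the 27962 names in the gene column of the array, chosen by name for their place in the pathway. They were measured by 16 of 41174 probes, being every probe that carries one of these names. RNA of whole mammary gland number 4 on lactation day 2 (L2) was compared between 4 WT dams and 5 dams carrying a transgene for human NAG-1 (hNAG-1), with 1 array per mouse. Human NAG-1, also known as GDF15, is a secreted protein of the TGF beta superfamily. Both genotypes carry the strain label C57BL/7, spelled here as submitted, and the glands were taken after the litter numbered 4. The transgene was built for expression in all tissues, so the gland is not its only site of expression, and the methods name 1 main transgenic line but also pooled animals of both lines in some experiments, without saying which applies to the arrays. The array holds probes for mouse transcripts, and no value here checks the human transgene.

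Milk fat draws on fatty acids from the blood. Lipoprotein lipase frees them from triglyceride-rich lipoproteins at the capillary wall, carriers and transport proteins bring them across the plasma membrane, binding proteins hold them in the cytosol, and acyl-CoA synthetases join them to coenzyme A so that they can be built into triglyceride. The same genes are used by adipocytes, which surround the secretory epithelium in this gland, and some by capillary endothelium and macrophages. The tissue is a mixture, and a lower value in a bulk sample may be fewer cells of a type or less RNA per cell, which cannot be told apart here.

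The probes are single strands of 60 bases, and 4 of them are shown because the results turn on their genes: Slc27a4, the member with the lowest p (which its other probe, A_51_P408609, gave), Acsl1, with the largest difference at a single probe (by the mean over a gene's probes Slc27a4, at 0.48, lay above Acsl1, at 0.46), Lpl, whose values followed those of Acsl1, and Slc27a3, whose hNAG-1 glands split into high and low. On mouse build mm7 the files place the Lpl probe at chr8:67355909-67355968 on the plus strand, the Slc27a3 probe at chr3:90517308-90517537 on the minus strand, the Slc27a4 probe at chr2:29822906-29822965 on the plus strand and the Acsl1 probe at chr8:45312289-45312348 on the plus strand. The placed stretch of the Slc27a3 probe is longer than the probe itself. No base is in capitals, since no motif was searched in the probes.
Lpl A_52_P257812: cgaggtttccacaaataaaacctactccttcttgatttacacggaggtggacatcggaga
Slc27a3 A_51_P133252: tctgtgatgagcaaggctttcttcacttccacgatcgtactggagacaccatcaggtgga
Slc27a4 A_52_P61854: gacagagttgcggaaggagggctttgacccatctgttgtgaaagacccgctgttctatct
Acsl1 A_51_P463452: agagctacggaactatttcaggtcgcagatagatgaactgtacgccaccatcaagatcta

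All 16 probes were well above background on all 9 arrays, none was saturated and none was marked as an outlier. Values below are scaled intensities, meaning the deposited intensity after each array was brought to a common 75th percentile. They are given in the order WT 1 to 4 and hNAG-1 1 to 5. A log2 fold change is hNAG-1 over WT, its error is the limma standard error (SE), and adjusted p-values are from limma with Benjamini-Hochberg adjustment over all 41174 probes. Levels of different probes are not set against each other.

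2 properties of the arrays touch every result. The arrays were on 3 slides, with WT 1 on slide 1, hNAG-1 1 to 4 on slide 2, and WT 2 to 4 with hNAG-1 5 on slide 3, so genotype and slide cannot be told apart outside slide 3. WT 2 stood apart from the other glands. Its summed intensity over 8 lymphocyte markers (7 of them well above background on all arrays) was 81261, against 2617 to 12870 on the other arrays, and that over 8 markers of secretory luminal epithelium was 943084, against 1264140 to 1743770. Of the luminal markers the Wap probe was saturated on WT 3 and hNAG-1 5, so the sums of these arrays, the 1264140 of hNAG-1 5 among them, are lower bounds. All these sums are scaled values. Before scaling WT 2 had the highest 75th percentile, 1133, against 508 to 915 on the other arrays, so its intensities were divided by the largest number. The part of the scaling in its luminal sum was not tested. Gland number 4 contains a lymph node. WT 1 had the lowest sum over 8 adipocyte markers, 182379 against 287606 to 532816, and no marker was missing from every array. The part of these differences in the results was not tested, and each result is therefore given with slide 3 alone and without WT 2 where that matters.

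Of the 16 probes, 14 had a higher mean and 2 a lower mean in hNAG-1 glands, where 48.6% of all probes and 53% of probes well above background on all arrays were higher. The median log2 fold change was 0.20 over the 16 probes, or 0.09 when each gene was counted once by its brightest probe, and -0.01 over all probes. The count depended on the scaling, with 11 higher and 5 lower under quantile normalization, 16 higher under median scaling and 8 of each without scaling, and the median of the 9 genes was then 0.08, 0.30 and -0.06, while that of all probes was 0.03, 0.19 and -0.16. Marker lists of the gland's cell types also differed in the means, with 8 of 8 adipocyte markers (median 0.36), 7 of 8 of capillary endothelium (0.22), 8 of 8 of luminal epithelium (0.10), 2 of 6 of macrophages (-0.14) and 0 of 8 of lymphocytes (-1.26) higher in hNAG-1 glands, none with an unadjusted p under 0.05, and their part in the member values was not tested. 1 probe, of Slc27a4, had an unadjusted p under 0.05, where 5.55% of all probes did (1.25% being higher and 4.31% lower) and 3.86% of those well above background did, and no member probe had an adjusted p under 0.05, where 0.00243% of all probes did. By the equal-variance test of the study's methods 1 member probe also passed without adjustment. None separated the genotypes without overlap, which 1.41% of all probes did. None met a limma form of the methods' stricter rule, which 2.14% of all probes met. It asks for an unadjusted limma p under 0.05, a 1.5-fold difference and a scaled intensity of at least 65 on an array.

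**Figure D1:**
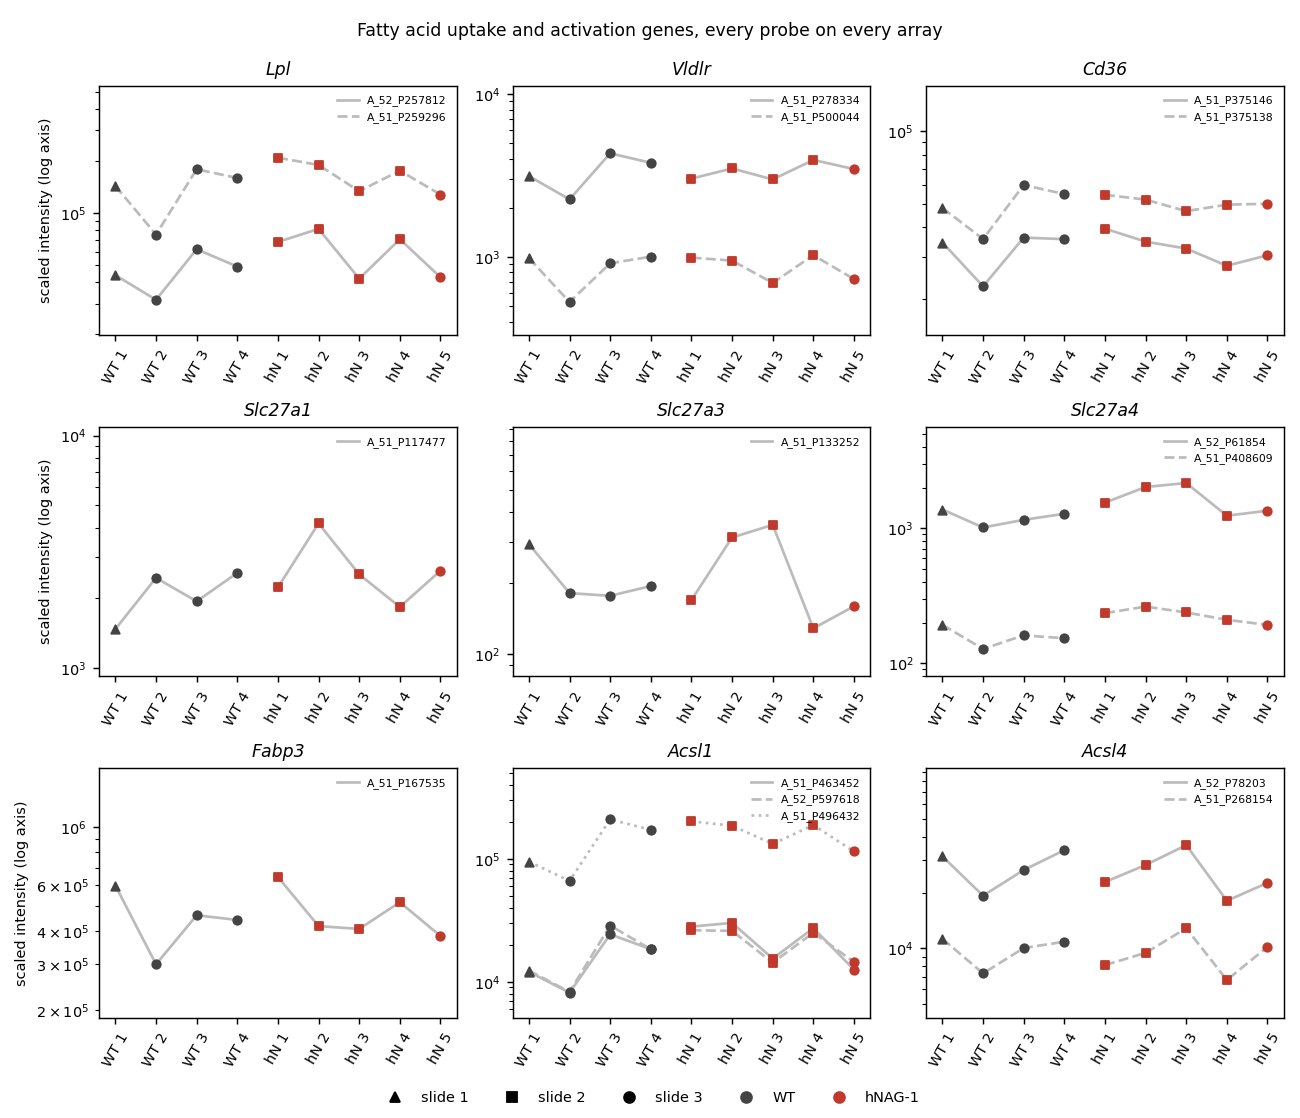
Scaled intensity (log axis) of the 16 probes of the 9 genes on each array (hN stands for hNAG-1), with genotype in color, slide by symbol and the probes of a gene by line style. WT 2 lies lowest in 12 of the 16 probes, and the Slc27a4 probes lie higher on most hNAG-1 arrays.

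Lpl encodes lipoprotein lipase. At probe A_51_P259296 it read 143246, 75163, 178856 and 159297 in WT glands and 208571, 189383, 133669, 175547 and 127891 in hNAG-1 glands. The value of WT 2 was the lowest of all, hNAG-1 1 and 2 lay above every WT gland, and the rest overlapped. The log2 fold change was 0.31 (SE 0.28, 95% interval -0.31 to 0.93), adjusted p = 0.70 by limma. At probe A_52_P257812 the WT readings were 43837, 31618, 61876 and 49132 and the hNAG-1 readings 68172, 80999, 41844, 70635 and 42650, a log2 fold change of 0.37 (SE 0.27) with an adjusted p of 0.65 by limma. Here 3 hNAG-1 glands lay above all WT glands, and 2 lay below 3 of the WT glands. Without WT 2 the 2 differences were 0.04 and 0.20, and on slide 3 alone -0.01 and -0.10. Vldlr encodes a receptor that binds triglyceride-rich lipoproteins. Its probes gave log2 fold changes of 0.04 (SE 0.20) and 0.06 (SE 0.23), with adjusted p-values of 0.96 and 0.94 by limma. At A_51_P278334 the WT readings ran from 2248 in WT 2 to 4314 in WT 3 and contained all 5 hNAG-1 readings, 2981 to 3925. At A_51_P500044 the WT glands read 981, 528, 911 and 1001 and the hNAG-1 glands 691 to 1022, so that WT 2 lay below every other gland. Without WT 2 the probes gave -0.14 and -0.16, and on slide 3 alone 0.06 and -0.11.

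Cd36 encodes a scavenger receptor that takes up long-chain fatty acids. Its probes gave log2 fold changes of 0.05 (SE 0.19) and 0.05 (SE 0.17), with adjusted p-values of 0.94 and 0.93 by limma, and intervals of -0.37 to 0.47 and -0.34 to 0.44. At A_51_P375146 the WT readings were 34367, 22542, 36012 and 35500, so that WT 2 alone lay below the hNAG-1 readings of 39257, 34666, 32428, 27470 and 30397. At A_51_P375138 the WT glands ranged from 35534 in WT 2 to 59743 in WT 3 and enclosed the hNAG-1 glands, 46484 to 54369. Without WT 2 the differences were -0.11 and -0.10, and on slide 3 alone -0.01 and 0.03.

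Slc27a1, Slc27a3 and Slc27a4 encode fatty acid transport proteins, which also activate the fatty acids they bring in. Slc27a4 gave the lowest p-values of the members. At A_51_P408609 it read 192, 128, 161 and 153 in WT glands and 235, 263, 238, 210 and 192 in hNAG-1 glands. The 4 hNAG-1 glands of slide 2 lay above every WT gland, and hNAG-1 5 lay just below WT 1. The means were 158 ± 26.7 (SD, n = 4) and 227 ± 27.2 (SD, n = 5), a 1.44-fold difference with a 95% interval of 1.12 to 1.87. The log2 fold change was 0.53 (SE 0.16), with p = 0.0103 and adjusted p = 0.65 by limma and an exact permutation p of 0.0317, where 0.0159 is the smallest that 4 against 5 arrays can give. Smaller p-values were found for 0.743% of all probes. At A_52_P61854 the readings were 1377, 1014, 1154 and 1281 in WT glands and 1549, 2021, 2165, 1238 and 1349 in hNAG-1 glands. The first 3 hNAG-1 glands lay above all WT glands, and the other pair lay among them. The log2 fold change was 0.44 (SE 0.21, interval -0.02 to 0.90), limma p = 0.0602, adjusted p = 0.65 and exact permutation p = 0.0794. Without WT 2 the 2 probes gave 0.43 and 0.36, and on slide 3 alone 0.39 and 0.24, where hNAG-1 5 read above all 3 WT glands at both. The limma p of A_51_P408609 was 0.240 on slide 3 alone and 0.188 when the arrays were not scaled. The arrays with the highest Slc27a4 readings at A_52_P61854, hNAG-1 2 and 3, also had the highest sums over 8 markers of capillary endothelium (all 8 well above background on all arrays), 14208.5 and 15723, against 10354 to 12987 on the others, and the part of this in the Slc27a4 values was not tested.

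Slc27a1 read 1469, 2440, 1933 and 2563 in WT glands and 2221, 4185, 2526, 1828 and 2620 in hNAG-1 glands. hNAG-1 2 was the highest gland and WT 1 the lowest, and the rest overlapped. Its log2 fold change was 0.33 (SE 0.26), adjusted p = 0.67 by limma, and 0.15 without hNAG-1 2. Slc27a3 read 293, 182, 177 and 195 in WT glands and 170, 313, 354, 129 and 160 in hNAG-1 glands. The hNAG-1 glands split, with 2 above every WT gland and 3 below every WT gland, and the mean difference was 0.01 on the log2 scale (SE 0.33), adjusted p = 0.996 by limma, with -0.06 without WT 2 and -0.21 on slide 3 alone.

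Fabp3 encodes the fatty acid-binding protein that is abundant in heart and lactating mammary gland. It read 597189, 298861, 460046 and 441510 in WT glands and 644316, 418179, 408001, 515941 and 383352 in hNAG-1 glands. WT 2 was lowest and hNAG-1 1 highest, and the log2 fold change was 0.09 (SE 0.24, interval -0.44 to 0.62), adjusted p = 0.90 by limma, turning to -0.09 without WT 2 and -0.04 on slide 3 alone. Before scaling WT 2 had the highest 75th percentile of the arrays, 1133, and hNAG-1 1 the lowest, 508. Under quantile normalization the Fabp3 difference was 0.03 (SE 0.09). The part of the scaling in the Fabp3 values was not tested. Acsl1 encodes a long-chain acyl-CoA synthetase that is prominent in adipocytes and in lipid-making tissue. At A_51_P463452 it read 12054, 8153, 24277 and 18411 in WT glands and 28065, 30089, 15422, 27264 and 12542 in hNAG-1 glands. Among WT glands WT 1 and WT 2 were low, and among hNAG-1 glands hNAG-1 3 and hNAG-1 5 were. The log2 fold change was 0.56 (SE 0.38, interval -0.30 to 1.42), adjusted p = 0.65 by limma, and the other 2 probes gave 0.42 (SE 0.37) and 0.39 (SE 0.35). At both of these the WT readings, 8259 to 28637 and 66011 to 208807, enclosed the hNAG-1 readings, 14271 to 26216 and 114584 to 201242. The 3 Acsl1 probes gave 0.29, 0.13 and 0.09 without WT 2, and -0.30 (SE 0.68), -0.17 (SE 0.75) and -0.22 (SE 0.74) on slide 3 alone. Without WT 3, the highest WT gland, they gave 0.81, 0.73 and 0.65. Acsl4 encodes a synthetase that prefers arachidonic acid. Its probes were the 2 that were lower, with log2 fold changes of -0.13 (SE 0.24) and -0.07 (SE 0.22) and adjusted p-values of 0.87 and 0.92 by limma. At A_52_P78203 the WT readings were 31359, 19244, 26464 and 33884 and the hNAG-1 readings 22803, 28177, 36064, 18060 and 22573, and the genotypes overlapped over nearly their whole range. At A_51_P268154 the WT glands ran from 7320 to 11269 and the hNAG-1 glands from 6748 to 12831. Without WT 2 the probes gave -0.29 and -0.21, without hNAG-1 4 they gave -0.012 and 0.039, without WT 4 -0.020 and -0.022, and on slide 3 alone -0.20 and 0.13.

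**Figure D2:**
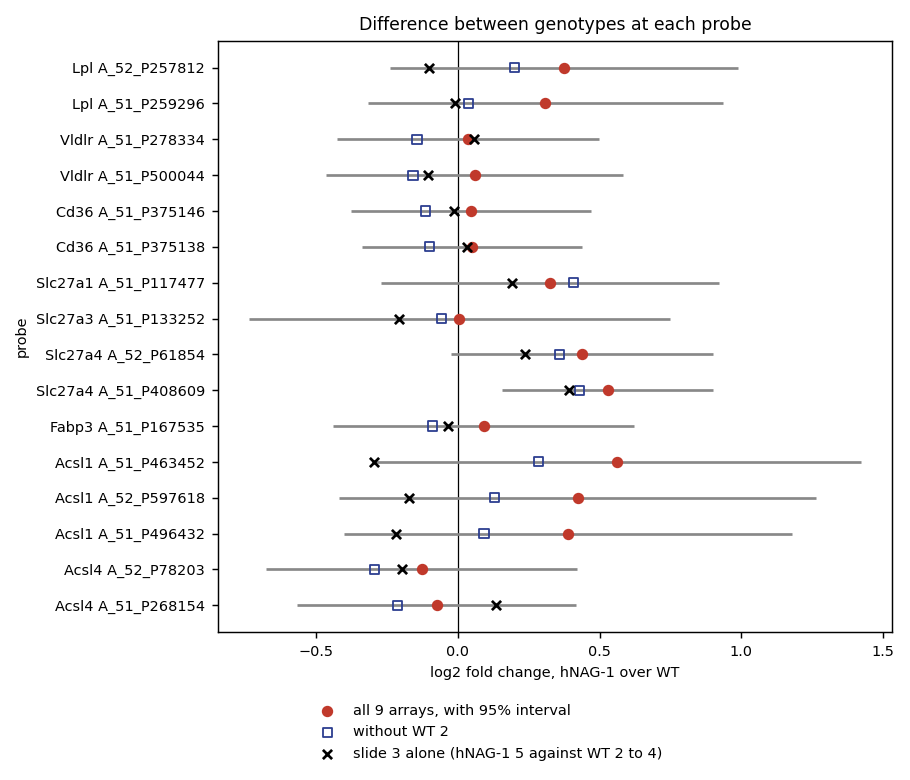
Log2 fold change of hNAG-1 over WT at each of the 16 probes: filled circles with 95% intervals for all 9 arrays, open squares without WT 2, and crosses for slide 3 alone. Only the interval of Slc27a4 A_51_P408609, 0.16 to 0.90, stays above 0, and the Acsl1 crosses lie below 0 while the Slc27a4 crosses lie above.

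On slide 3 alone, where hNAG-1 5 can be set against WT 2 to 4, 6 of the 16 probes were higher and 10 lower, and 68.5% of all probes were higher there. The median over all probes was 0.19 and that over the 16 was -0.02. None of the 16 had an unadjusted p under 0.05 on that slide, where 8.97% of all probes did, and limma here takes the spread of the 3 WT glands for that of hNAG-1 as well. Without WT 2 the 16 probes divided into 8 higher and 8 lower, and the median of the 9 genes was -0.06, where that of all probes was -0.03. WT 2 was the lowest of all 9 arrays at 12 of the 16 probes, which it was at 29.8% of all probes, and the lowest of the 4 WT arrays at 14. Slc27a1 and both Slc27a4 probes kept their direction in every setting tried.

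**Figure D3:**
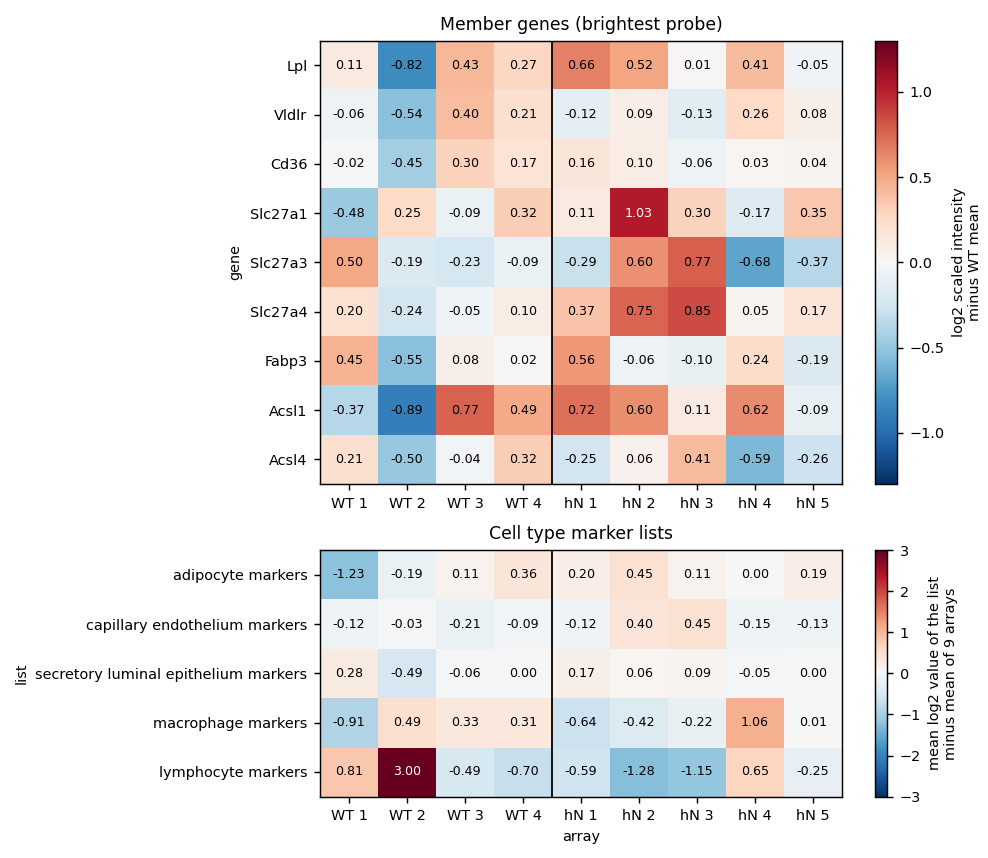
Upper panel: log2 scaled intensity of each gene's brightest probe minus the WT mean, by array (hN stands for hNAG-1). Lower panel: mean log2 value of 5 marker lists minus their mean over the 9 arrays, with WT 2 at 3.00 for lymphocytes and -0.49 for luminal epithelium, and WT 1 at -1.23 for adipocytes.

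Genes of a family were also compared within each array, by the log2 ratio of their brightest probes, with an exact two-sided permutation test and adjustment over the 4 ratios. Acsl1 over Acsl4 differed between genotypes by 0.52 (95% interval -0.46 to 1.49), exact p = 0.22, adjusted p = 0.44, by -0.02 on slide 3 alone, and by 0.32 without WT 1 to 0.79 without WT 3 when 1 mouse at a time was left out. Slc27a3 over Slc27a4 differed by -0.43 (interval -0.86 to -0.01), exact p = 0.095, adjusted p = 0.38. Slc27a1 over Slc27a4 differed by -0.11 (interval -0.78 to 0.55), exact p = 0.65, and Slc27a1 over Slc27a3 by 0.32 (interval -0.57 to 1.21), exact p = 0.41. No ratio separated the genotypes.

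The probes of a gene followed each other over the 9 arrays. Pearson's r was 0.90 for Lpl, 0.73 for Vldlr, 0.85 for Cd36, 0.86 for Slc27a4, 0.92 for Acsl4 and 0.96 to 0.97 among the 3 of Acsl1. Between genes, Lpl followed Acsl1 (r = 0.92, Spearman's rho = 0.87) and Cd36 (r = 0.89), and Cd36 followed Acsl1 (r = 0.88) and Vldlr (r = 0.86). Slc27a3 followed Acsl4 (r = 0.78) and Slc27a4 (r = 0.73), while Slc27a1 ran against Fabp3 (r = -0.50). These are descriptions over 9 arrays that share their scaling, and how common such values were differed by member, since 349 genes followed Lpl, 221 Acsl1, 146 Fabp3, 138 Cd36, 41 Slc27a4, 25 Acsl4, 24 Vldlr, 20 Slc27a1 and 5 Slc27a3 with r over 0.9 among the 13496 genes measured well above background on all arrays. Without WT 2, r was 0.84 for Lpl with Acsl1, 0.61 for Lpl with Cd36, 0.72 for Cd36 with Acsl1 and 0.63 for Cd36 with Vldlr, whereas it was 0.81 for Slc27a3 with Acsl4 and 0.77 for Slc27a3 with Slc27a4. By the same measure, among these 13496 genes, the closest to Lpl was Kcnk6 (r = 0.99), followed by Slc39a8, and the closest to Acsl1 were Chchd4 and Tmem125. Fabp3 ran with Wap and Spp1, both milk proteins, but their probes were saturated on 2 and 3 of the arrays, so no value or rank is given for them. The part of the scaling in this likeness was not tested. Slc27a4 ran closest to Abhd17a (r = 0.99) and Hoxd9 (r = 0.95). Vldlr ran with Rnf7 and Uba3, Cd36 with Hdhd2 and Larp1b, Slc27a1 with Rasl11a and Trp53rka, Slc27a3 with Hnrnpl and Tecpr1, and Acsl4 with Erc1 and Tle2, all at r of 0.94 to 0.98.

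The start regions of 3 genes are shown, Cd36 and Acsl1 because their values moved together across arrays and Slc27a4 because it had the lowest p. The sequences are from RefSeq on GRCm38.p6 and run from 250 bases before to 50 after a gene's start, at chr5:17835847-17836146 on the minus strand for Cd36, chr8:46470787-46471086 on the plus strand for Acsl1 and chr2:29802384-29802683 on the plus strand for Slc27a4. Of the 9 genes 8 had such a window, 12 windows in all, and Lpl had none. Capitals mark letters of GGGCGG (the GC box), CCAAT or AGGTCA (a nuclear receptor recognition element), each on either strand, and adjoining matches can overlap.
Cd36: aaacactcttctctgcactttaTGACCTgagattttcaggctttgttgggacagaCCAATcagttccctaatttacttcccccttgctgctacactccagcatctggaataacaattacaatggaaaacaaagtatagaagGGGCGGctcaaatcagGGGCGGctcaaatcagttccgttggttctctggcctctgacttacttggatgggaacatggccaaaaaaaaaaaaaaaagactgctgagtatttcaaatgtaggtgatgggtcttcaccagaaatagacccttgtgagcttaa
Acsl1: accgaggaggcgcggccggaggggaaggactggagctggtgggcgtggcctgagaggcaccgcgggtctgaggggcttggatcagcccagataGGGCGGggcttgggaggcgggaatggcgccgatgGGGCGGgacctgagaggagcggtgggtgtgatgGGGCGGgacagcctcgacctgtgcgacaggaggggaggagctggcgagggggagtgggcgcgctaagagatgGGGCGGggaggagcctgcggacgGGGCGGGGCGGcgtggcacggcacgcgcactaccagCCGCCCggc
Slc27a4: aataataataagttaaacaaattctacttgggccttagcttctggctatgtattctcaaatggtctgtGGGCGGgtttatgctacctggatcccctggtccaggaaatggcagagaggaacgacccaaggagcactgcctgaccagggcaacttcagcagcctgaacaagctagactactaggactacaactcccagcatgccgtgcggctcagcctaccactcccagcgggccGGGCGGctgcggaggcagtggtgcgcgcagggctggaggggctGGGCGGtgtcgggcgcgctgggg

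GGGCGG was in 8 of the 12 windows, of 7 genes, and in 35.7% of all 32851 windows of the same length. CCAAT was in 6 windows of 5 genes and in 37.4% of all windows. AGGTCA was in the Cd36 window alone among these genes and in 16.3% of all, and the E-box CACGTG in a window of Slc27a1 and in 7.15% of all. TTCNNNGAA, the palindrome bound by Stat factors, was in none of the 12 and in 8.30% of all windows, and TATAAA in none and in 13.6%. These are matches of letters and carry no measure of binding.

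Around the 9 members, 40 other genes of uptake and activation were looked at by their brightest probe, 28 of them well above background on all arrays. In hNAG-1 glands 25 had a higher and 15 a lower mean, the median log2 fold change being 0.11, and 3 had an unadjusted p under 0.05, against 5.55% of all probes. None had an adjusted p under 0.05 by limma. The 4 acyl-CoA thioesterases lay between -0.16 and 0.11, where Acot1 and Acot2 are near-identical copies whose probes may share signal. Slc27a2, another fatty acid transport protein, read 50.9, 30.8, 94.6 and 57.6 in WT glands and 22.2, 32.2, 20.4, 19.5 and 18.4 in hNAG-1 glands. It was well above background in all 4 WT glands and in 2 of the hNAG-1 glands, and hNAG-1 2 overlapped WT 2. The fitted log2 difference, -1.29 with p = 0.00226 and adjusted p = 0.65 by limma and exact permutation p = 0.0317, rests on these dim readings and is no exact size. It depended on the background correction, being -0.38 with normexp, where its unadjusted limma p of 0.0904 was no longer under 0.05. Under quantile normalization that p was 0.0624. On slide 3 the only hNAG-1 gland was not well above background, so no difference is given there, and the gene's other probes reached up to -0.69. Apoc3, an apolipoprotein that slows lipolysis, was read at low intensities, a mean of 33.0 ± 17.4 (SD) in WT glands against 80.7 ± 31.2 in hNAG-1 glands. WT 2, at 8.22, was not well above background, so the fitted log2 difference of 1.47, adjusted p = 0.65 by limma, is no exact size either. It was 0.89 without WT 2 and 0.73 with normexp. No difference is given on slide 3, which holds WT 2, and the unadjusted limma p was above 0.05 there, at 0.119, with slide as a fixed block, at 0.0678, and with the replicate block, at 0.0764. Acss2, which activates acetate, gave 0.88 (SE 0.39), with an adjusted p of 0.65 by limma and with its other probes down to 0.20, and its unadjusted p was above 0.05 without WT 1, 2 or 3 or without hNAG-1 2, 3 or 5, the difference being 0.59 without WT 2. That p was 0.289 on slide 3 alone, 0.306 with slide as a fixed block and 0.0626 with slide as a random block, at differences of 0.81, 0.81 and 0.87. It was also above 0.05 without scaling and with the replicate block (0.138 in both), by the methods' test (0.0801), under quantile normalization (0.0596) and with outlier flags kept (0.0502).

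Among genes well above background on all arrays, Acsm3, a medium-chain acyl-CoA synthetase, had the largest positive difference at 1.12 (SE 0.51), adjusted p = 0.65 by limma, but 0.50 on slide 3 alone and 0.71 without WT 1. The largest negative one was that of Angptl4, which inhibits lipoprotein lipase. Angptl4 read 63973, 49766, 54565 and 73226 in WT glands and 25423, 21764, 41749, 26823 and 82817 in hNAG-1 glands. The 4 hNAG-1 glands of slide 2 lay below every WT gland, whereas hNAG-1 5, the hNAG-1 gland on the slide of WT 2 to 4, was the highest of the 9. The log2 fold change was -0.78 (SE 0.37), unadjusted p = 0.0660 and adjusted p = 0.65 by limma, and 0.50 on slide 3 alone. Without hNAG-1 5 it was -1.09, with an unadjusted limma p of 0.00136 and an adjusted one of 0.077. Apoc2, the activator of lipoprotein lipase, gave -0.23 (SE 0.38), with hNAG-1 4 at 863 and the other hNAG-1 glands at 202 to 352. It was -0.57 without hNAG-1 4, where its unadjusted limma p was 0.0229, and -0.046 without hNAG-1 3. The sum over 6 macrophage markers was also highest in hNAG-1 4, 200974 against 58411 to 144331 in the other glands, and its part in this value was not tested.

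**Figure D4:**
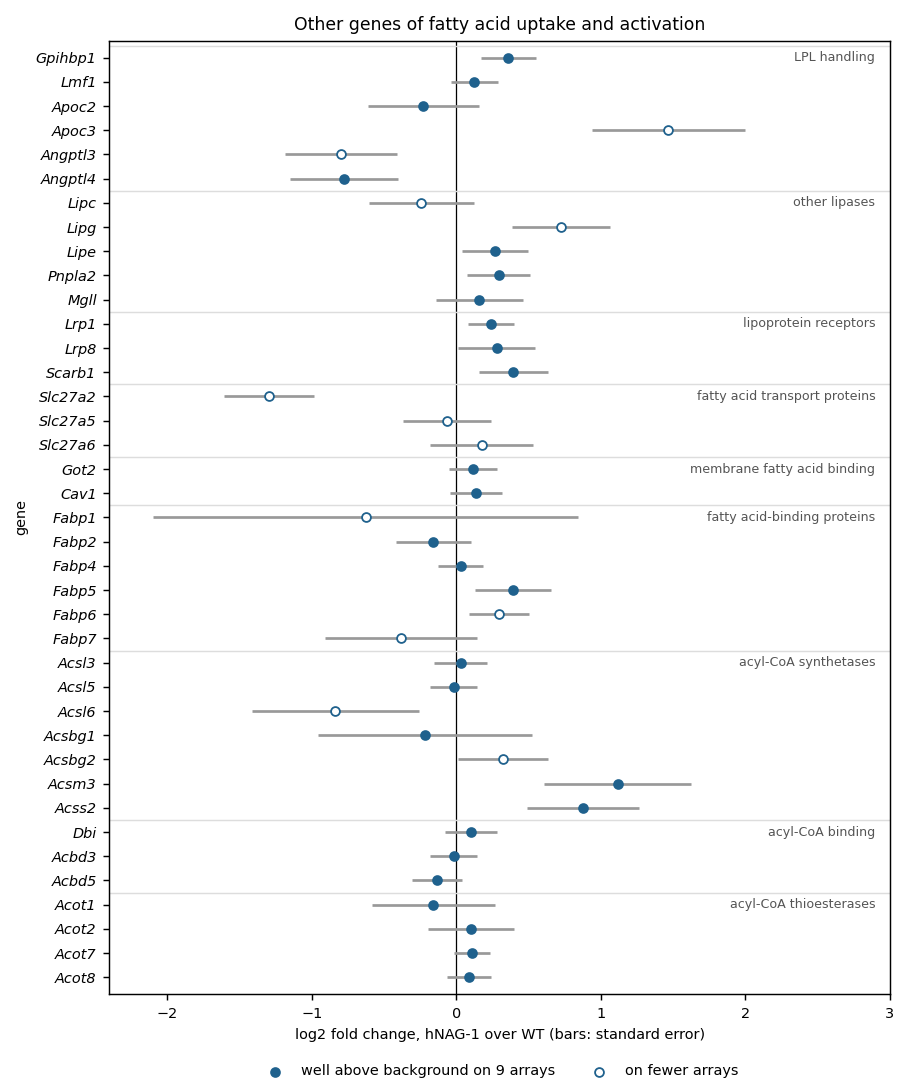
Log2 fold change of hNAG-1 over WT with its standard error for the other genes of fatty acid uptake and activation, all but 1 of the 40, grouped by role; open circles mark genes not well above background on every array. Among the filled circles Acsm3, at 1.12, lies farthest above 0 and Angptl4, at -0.78, farthest below 0, while the open ones, Apoc3 and Slc27a2 among them, have no exact size.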

How the data were processed

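The authors deposited scanner output of 9 1-color arrays as Feature Extraction (version 9.5.3.1 per the file headers) intensity after background subtraction, without scaling between arrays. The 75th percentile of the deposited intensity ran from 508 to 1133, and 59.8% to 76.1% of features were well above background on an array. The number of arrays limits the precision, and depth does not apply.

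Control features and features marked as outliers were left out, repeats of a probe were averaged, intensities were divided by the array's 75th percentile, brought back to a common level and put on the log2 scale. Genotypes came from the labels. The main test was limma (version 3.58.1, under R 4.3.3; lmFit, eBayes, two-sided, no covariates) over 41174 probes, and the steps were tested on simulated data. Exact permutation tests used all 126 splits into 4 and 5 arrays.

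All member probes are named, and of 40 other genes those with an unadjusted p under 0.05, without overlap, or with the 2 largest rises or falls among genes well above background, and the 2 genes running closest to each member. Members and lists were chosen with earlier results of these data known. The alternatives were normexp with an offset of 50, quantile, median and no scaling, outlier features kept, dim probes left out, eBayes with trend and robust estimation, the methods' test, the main limma test with a 1.5-fold difference and a scaled intensity of 65, slide 3 alone, slide as a block (fixed, or random), a replicate block, the mean of a gene's probes, and each mouse left out. The value of 1 of the 40 other genes is not reported here. No annotation of mm7 was used.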

Additional observations from a re-analysis of the deposited data

Results flagged for a closer look

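Within the 4 WT glands WT 2 was far from the others at 2 of the 16 probes. Vldlr A_51_P500044 read 527.6 in WT 2, against 911 to 1001 in the other WT glands, and Cd36 A_51_P375146 read 22542 in WT 2, against 34367 to 36012. Of 32 groups of a probe and a genotype that were checked, these 2 stood out, and chance marks about 1 in 20. Both readings of WT 2 are scaled, and its 75th percentile before scaling was 1133, against 574 to 814 on the other WT arrays. The lymphocyte and luminal marker sums of WT 2 are given above. The part of the scaling and of these sums in the 2 values was not tested.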

How the results depend on the processing

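Over 342 repeats of the 16 member probes under other settings, 295 kept their direction, 47 turned it, and none had an adjusted p under 0.05 (lowest 0.151). Leaving out dim probes, trend and robust estimation, and the methods' test left the log2 fold changes as they were, so no direction could turn there. Slide as a fixed block repeated the differences of the only slide with both genotypes. The replicate block repeated those without hNAG-1 5. The 342 repeats are therefore not independent, and the 295 are no measure of stability. Slc27a1 and both Slc27a4 probes never turned.

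Median scaling moved the median of all probes to 0.19 and no scaling to -0.16. Under median scaling Acsl4 became 0.078 and 0.13. Without scaling Vldlr became -0.12 and -0.093, Cd36 -0.11 and -0.10, Slc27a3 -0.15 and Fabp3 -0.061. Under quantile normalization Vldlr A_51_P278334 became -0.0060 and Cd36 -0.036 and -0.031. On slide 3 alone, and with the same values under slide as a fixed block, Lpl became -0.10 and -0.011, Vldlr A_51_P500044 -0.11, Cd36 A_51_P375146 -0.012, Slc27a3 -0.21, Fabp3 -0.036, Acsl1 -0.30, -0.17 and -0.22, Acsl4 A_51_P268154 0.13 and Angptl4 0.50, and the ratio of Acsl1 to Acsl4 on slide 3 alone became -0.023. With slide as a random block Slc27a3 became -0.031. With normexp the ratio of Slc27a3 to Slc27a4 was -0.36, now past the exact test's threshold without adjustment. The cause was not tested.

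Leaving out 1 mouse at a time gave -0.14 to 0.17 and -0.16 to 0.15 for Vldlr, -0.11 to 0.11 and -0.10 to 0.15 for Cd36, -0.19 to 0.18 for Slc27a3, -0.090 to 0.24 for Fabp3 and -0.21 to 0.039 for Acsl4 A_51_P268154. The lowest values came without WT 2, except for Slc27a3, where it was hNAG-1 3. The median of the 9 genes ran from -0.06 to 0.18. The ratio of Slc27a1 to Slc27a4 ran from -0.34 to 0.049 and that of Slc27a1 to Slc27a3 from -0.0086 to 0.52.

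The number of probes with an unadjusted p under 0.05 was 2287, and 1061 with normexp, 3546 with median scaling, 1511 with slide as a random block, 3694 on slide 3 alone, 2029 by the methods' test, 880 under the stricter rule of the methods, and 1168 to 5888 without 1 mouse, the extremes being without hNAG-1 2 and without hNAG-1 5. The share of these probes that were higher in hNAG-1 was 22.4%, against 54.2% with normexp, 57.5% with quantile normalization, 70.6% with median scaling, 2.91% without scaling and 90.5% with slide as a fixed block. The number with an adjusted p under 0.05 was 1, became 0 with normexp, quantile, median and no scaling, trend and robust estimation, the methods' test and slide 3 alone, was 117 with slide as a fixed block, and ran from 0 to 206 without 1 mouse, 206 being without hNAG-1 5. Of the 40 other genes 3 had an unadjusted p under 0.05, 1 under quantile normalization, 6 under median scaling, 5 under trend and robust estimation and 2 to 7 without 1 mouse.

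The same replicate numbers gave no sign of pairing, the deviations of same-numbered mice correlating at 0.27, -0.21, -0.14 and -0.32. Every same-numbered pair lay on different slides, so these values cannot settle whether mice were paired. With the replicate block over mice 1 to 4, 5375 probes had an unadjusted and 0 an adjusted p under 0.05, and 5 of the 40 other genes had an unadjusted one, whereas leaving out hNAG-1 5 alone gave 5888 and 206.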
